A study of Mus musculus with 28 samples.

Results

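The extracellular matrix is the secreted scaffold around cells. Its basement membrane, the thin sheet under endothelium, is built from laminin trimers and type IV collagen networks, which nidogens and the proteoglycans perlecan and agrin join together. Fibronectin, fibrillin microfibrils, elastic fibres, fibril-forming collagens and hyaluronan make up the looser matrix outside it, and metalloproteinases and their inhibitors set how fast it is taken down. In the endothelial-to-hematopoietic transition, endothelial cells of the embryonic aorta round up, leave the vessel wall and become blood progenitors.

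Transcripts of 40 genes of the matrix and its basement membrane were followed through this transition. The genes were picked by symbol, for what their products do, from a table of 24015 genes, with earlier results of these data known. Counts of called genes set beside the share of all genes are therefore not those of an independently chosen set. All 40 had counts, and all 40 were among the 15238 genes that passed a filter on low counts and were tested. They comprised 14 basement membrane genes, 7 fibril-forming and type VI collagens, 4 adhesive and matricellular glycoproteins, 6 genes of microfibrils and elastic fibres, 4 of hyaluronan and proteoglycans, and 5 remodelling enzymes and inhibitors.

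RNA was sequenced from 28 pools of 100 sorted cells, at 3 embryonic days (E) of mouse development. At E8.5 there were 4 libraries of hemogenic endothelium (HE, the endothelium that gives rise to blood) and 3 of endothelial cells (EC). At E9.5 there were 3 each of pro-HSC/HPC (HSC, hematopoietic stem cell; HPC, hematopoietic progenitor cell), HE and EC. At E10.5 there were 3 each of pre-HSC II, pre-HSC I, HE and EC. Every embryo, those of the EC groups included, carried the transgene labelled 23GFP, and the tissue was labelled PAS+VU on both earlier days but AGM+VU at E10.5. The sources used here do not give the promoter of the transgene, the sort gates or the number of embryos behind a pool. Because the tissue label changes with the day, day and tissue cannot be told apart in any contrast of E10.5 with an earlier day.

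Libraries held 16308918 to 31405603 counts and detected 34 to 40 of the 40 genes. Levels are given as CPM, counts scaled to a library of 1000000 after TMM scaling of library sizes, and 3 counts correspond to 0.108 to 0.188 CPM depending on the library. Of 10 endothelial markers, among them Cdh5 and Pecam1, none was at 0 in any population. Their sum stood at 1226 to 1424 CPM in E8.5 EC and at 1855 to 3823 CPM in the other HE and EC libraries. In pro-HSC/HPC it stood at 2271 to 2701 CPM, in pre-HSC II at 364 to 452 CPM and in pre-HSC I at 1056 to 1419.9 CPM. E8.5 EC and pre-HSC I overlapped, as did pro-HSC/HPC and other endothelium. Erythroid markers summed to 12129 and 4061 CPM in 2 of the 3 pro-HSC/HPC libraries and to 1404 CPM in 1 pre-HSC I library, against at most 30.2 CPM in every other library. For the comparisons that hold these 3 libraries the count of called genes is also given without them, which leaves 1 pro-HSC/HPC library, whose spread is then assumed to be that of the other groups, and 2 of pre-HSC I.

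Col4a1 and Col4a2, the genes of the main type IV collagen chains, lie head to head on mouse chromosome 8 (mm9, 11198423 to 11312826 on the minus strand and 11312829 to 11449287 on the plus strand). Fibronectin is encoded by Fn1 on chromosome 1 (71632047 to 71699808, minus strand), fibrillin 1 by Fbn1 on chromosome 2 (125126330 to 125332174, minus strand), and the laminin alpha 5 chain by Lama5 on the same chromosome (179911078 to 179960564, minus strand). Sparc is on chromosome 11 (55207661 to 55233582, minus strand) and Nid1 on chromosome 13 (13529869 to 13604542, plus strand). Timp3 is on chromosome 10 (85763157 to 85812250, plus strand), Hapln1 on chromosome 13 (89680241 to 89751437, plus strand) and Bgn on chromosome X (70728974 to 70741275, plus strand).

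For 7 of the 40 genes the difference between HE and EC changed between E8.5 and E10.5, as described further on. The RefSeq promoter table for GRCm38.p6 held 27 of the 40 genes and 5 of these 7. The 250 bases before the start are shown for the 3 of the 5 whose window held no annotated exon. The HE level set against EC was higher at E10.5 than at E8.5 for Lama5 and lower for Col15a1 and Bgn, but direction played no part in the choice. Capitals mark the GC box, GGGCGG, on either strand.
Lama5 (chr2:180225860-180226109, minus strand): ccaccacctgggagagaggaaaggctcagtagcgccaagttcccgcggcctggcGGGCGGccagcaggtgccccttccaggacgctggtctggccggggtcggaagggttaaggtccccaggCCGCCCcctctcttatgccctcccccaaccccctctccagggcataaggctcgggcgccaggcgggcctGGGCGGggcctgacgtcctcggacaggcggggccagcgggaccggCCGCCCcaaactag
Col15a1 (chr4:47207762-47208011, plus strand): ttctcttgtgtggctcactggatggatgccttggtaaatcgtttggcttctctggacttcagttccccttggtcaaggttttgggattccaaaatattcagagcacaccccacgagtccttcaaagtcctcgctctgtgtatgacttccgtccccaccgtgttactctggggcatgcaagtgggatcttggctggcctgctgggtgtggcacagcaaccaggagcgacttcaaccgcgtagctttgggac
Bgn (chrX:73483351-73483600, plus strand): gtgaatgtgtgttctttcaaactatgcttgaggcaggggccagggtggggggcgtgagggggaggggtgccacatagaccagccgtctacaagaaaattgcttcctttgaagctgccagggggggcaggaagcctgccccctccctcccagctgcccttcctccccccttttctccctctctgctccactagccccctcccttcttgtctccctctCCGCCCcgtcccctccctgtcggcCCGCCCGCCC

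The Lama5 window held 4 GC boxes, 196 and 59 bases before the start on the gene's strand and 128 and 14 bases before it on the other. The Bgn window held 3, all on the other strand, at 34, 10 and 6 bases, the last pair overlapping each other. The Col15a1 window held none of the 5 motifs searched on both strands, which were the RUNX core (TGTGGT), the GATA motif (GATAAG), the GC box, the CCAAT box and the TATA box (TATAAA). Across 32851 windows of the same length, 32.7% held a GC box and 14% the RUNX core. Of the 27 genes with a window, 19 held a GC box and 3 the RUNX core in any of their windows. Some genes, such as Agrn, have several windows, so these counts per gene cannot be set directly against the shares per window.

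As a share of all counts, the 40 genes together made up 0.914% ± 0.156 in E10.5 HE, the highest of the populations, and 0.102% ± 0.0202 in pre-HSC II, the lowest (SD, n = 3 each). Of the 40, 23 had their highest mean in E10.5 HE and 26 their lowest in pre-HSC II. The same counts over all genes were not made. The E10.5 HE means of Col1a1, Col1a2 and Col5a1 were carried by replicate 1 (116, 80.0 and 37.5 CPM). In E10.5 HE 34 of the 40 averaged at least 10 CPM and 1 averaged under 1 CPM, while in pre-HSC II the counts were 14 and 14. Per kilobase of exon, and averaged over the populations, the most abundant transcripts were Sparc (a secreted, collagen-binding glycoprotein) at 359 CPM per kb, Fn1 at 131, Hapln1 (a link protein that ties proteoglycans to hyaluronan) at 103 and Col4a1 at 76.2. The least abundant was Col6a2, a type VI collagen chain, at 0.0639 CPM per kb. Fn1 and Sparc together gave 27.9% to 56.8% of the counts of the 40 genes, depending on the population.

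**Figure D1:**
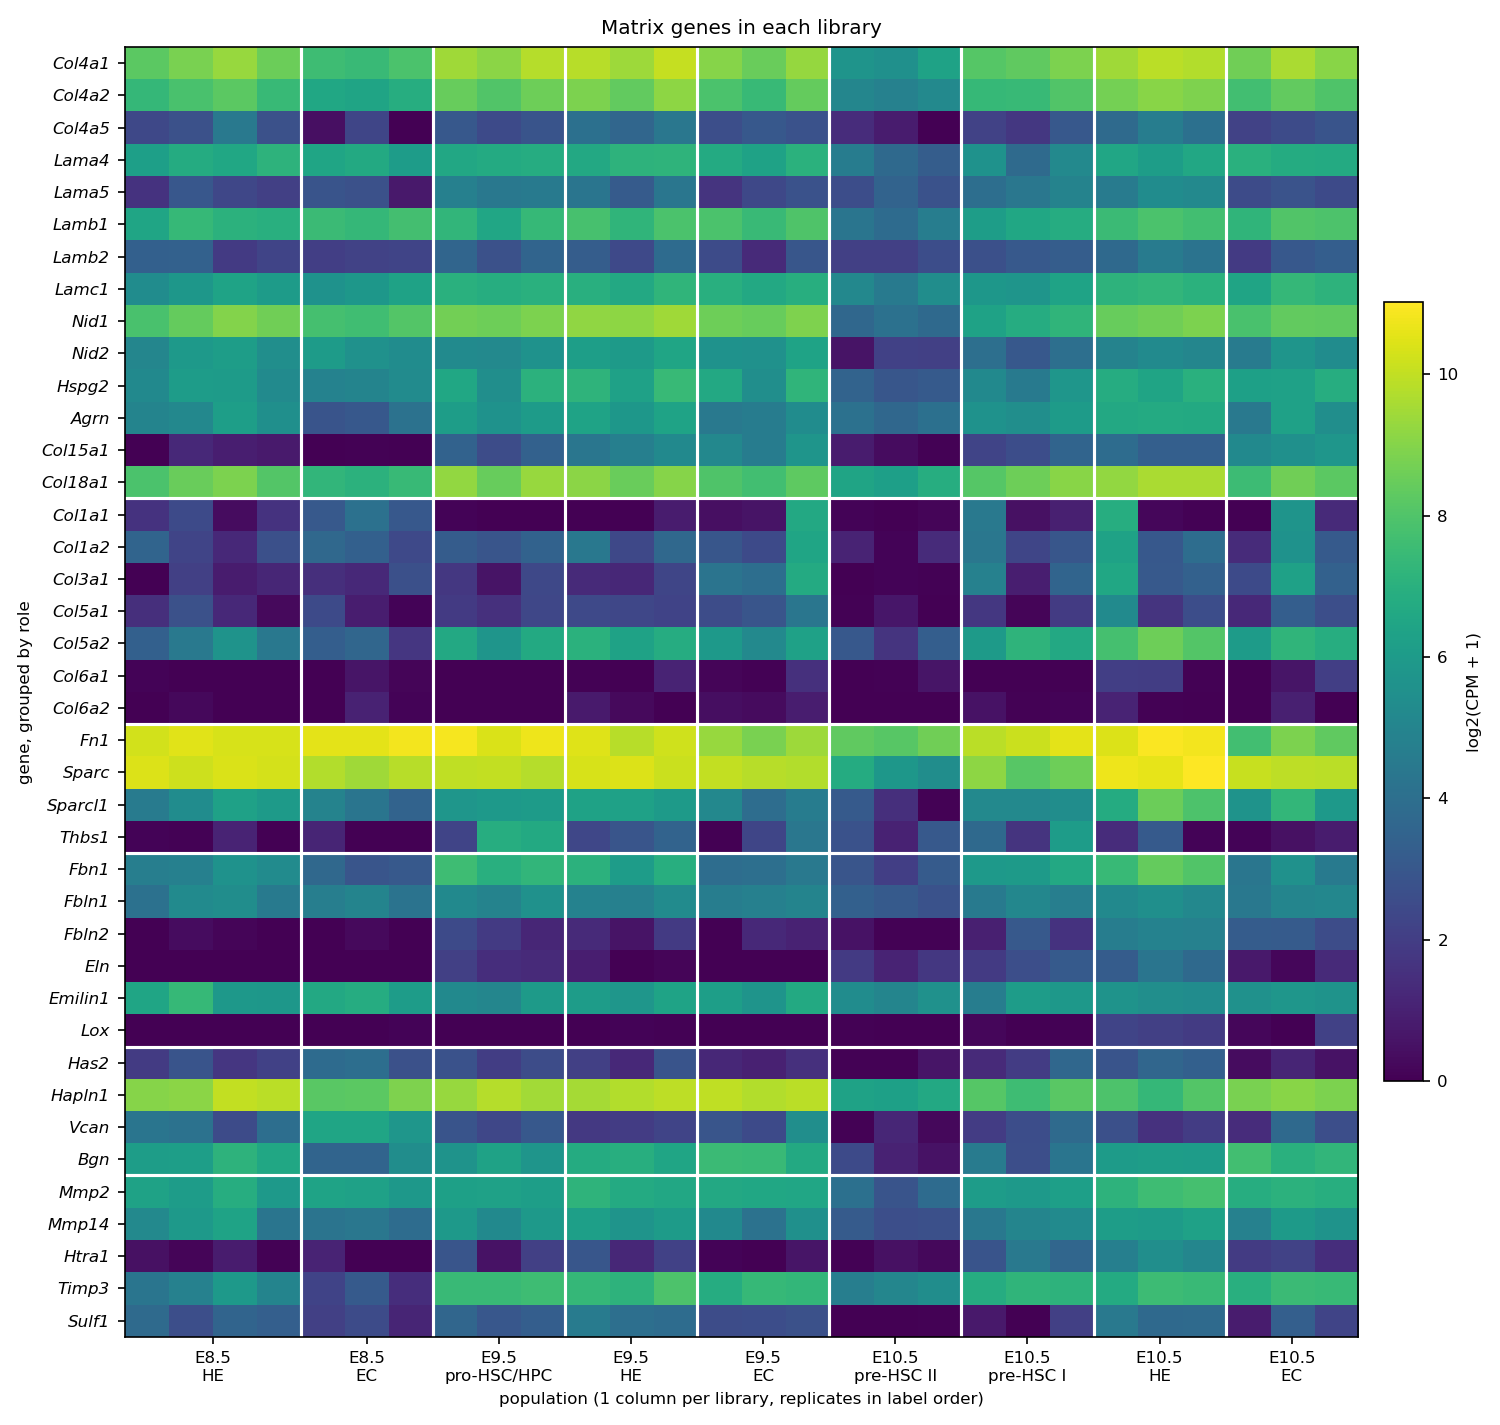
Levels of the 40 matrix genes (rows, grouped by role) in the 28 libraries (columns, grouped by population), as log2(CPM + 1). Of the 40 rows 23 have their highest mean in the E10.5 HE columns and 26 their lowest in the pre-HSC II columns. The same counts over all genes were not made. The E10.5 HE means of Col1a1, Col1a2 and Col5a1 are carried by replicate 1, and Col1a1 and Thbs1 stand out in single libraries. All rows share a colour scale from dark blue (low) to yellow (high), so rows of weakly expressed genes stay dark throughout.

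Within families of chains the balance can be read from levels per length. Counted per kilobase, Lama5 gave 17.3% ± 5.94 of Lama4 plus Lama5 in E10.5 HE, against 2.34% ± 0.509 in EC of that day (SD, n = 3 each). The pre-HSC II value was 22.7% ± 10.97 and the pre-HSC I value 29.7% ± 15.3. At E8.5 that share was 2.04% ± 0.918 in HE and 2.37% ± 1.64 in EC (SD, n = 4 and 3). Both genes encode laminin alpha chains of vessel walls. The share of Col4a2 in Col4a1 plus Col4a2 was 32.2% to 37.0% in all 9 populations. Neither share was tested.

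The plot of 8 genes by population shows the main courses. Col4a1, Sparc and Fbn1 were high in HE and low in pre-HSC II. Hapln1 was higher in HE than in EC at E8.5 and lower in HE than in EC at E10.5.

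**Figure D2:**
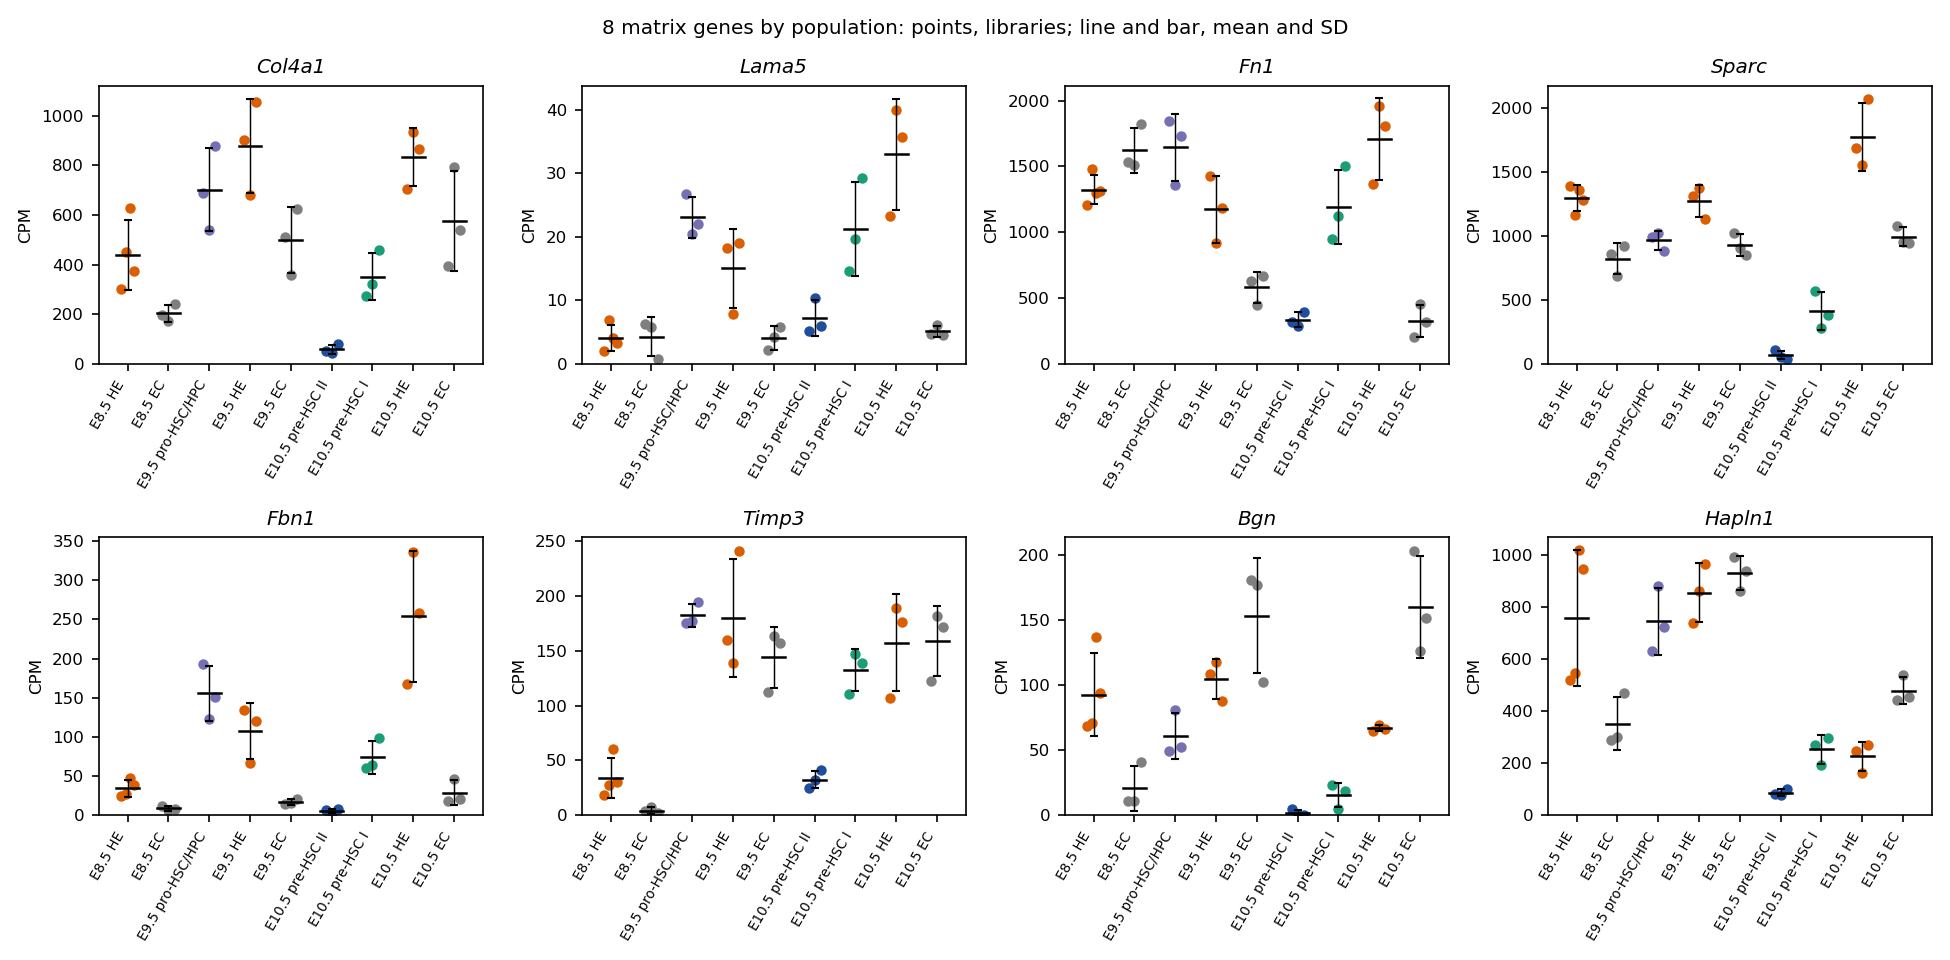
CPM (linear axis) of 8 matrix genes in every library, by population, with the mean and SD of each group. Fbn1 libraries of HE lie above those of EC on each day, from 25.0 to 336 CPM against 6.59 to 46.8 CPM over the 3 days, and Fn1 is lowest in E10.5 EC and pre-HSC II.

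The first question was how HE differs from EC of the same day. At E8.5, HE had more transcript of 11 of the 40 genes and less of 1 (edgeR quasi-likelihood test over 15238 genes, adjusted p under 0.05, the threshold used throughout). Of all genes tested 5.08% were higher and 1.73% were lower. The higher genes were 5 of the 14 basement membrane genes, Fbn1, Col5a2, Bgn, Hapln1, and the remodelling genes Timp3 and Mmp14. The median log2 difference of the 40 was 0.29, against 0 for all genes; it was 0.39 without the 2 genes that had 3 or fewer counts in both groups.

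Timp3, an inhibitor of metalloproteinases held in the matrix, had 18.6, 28.04, 60.1 and 30.1 CPM in the E8.5 HE libraries, against 3.59, 7.61 and 1.76 CPM in the E8.5 EC libraries (edgeR log2 difference 2.96 ± 0.40 SE, adjusted p = 2.19e-05). Agrn, the heparan sulfate proteoglycan agrin, had 30.7, 34.4, 71.1 and 43.2 CPM in HE, against 6.16, 7.10 and 16.7 CPM in EC (edgeR log2 difference 2.17 ± 0.40 SE, adjusted p = 0.000917). Fbn1 had 25.0, 26.7, 47.7 and 38.7 CPM in HE, against 12.1, 6.59 and 7.46 CPM in EC (edgeR log2 difference 1.98 ± 0.38 SE, adjusted p = 0.00135). For these 3 genes every HE library lay above every EC library.

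Bgn, the small proteoglycan biglycan, had 68.8, 71.2, 137 and 93.8 CPM in HE, against 10.8, 10.8 and 40.7 CPM in EC (edgeR log2 difference 2.17 ± 0.54 SE, adjusted p = 0.0137). Vcan, the hyaluronan-binding proteoglycan versican, was the gene that was lower, with 18.2, 16.7, 4.80 and 14.9 CPM in HE, against 88.4, 87.9 and 54.9 CPM in EC (edgeR log2 difference -2.49 ± 0.74 SE, adjusted p = 0.0396). Col5a2, a chain of type V collagen, had 9.47, 21.1, 48.9 and 20.0 CPM in HE, against 8.90, 11.6 and 2.38 CPM in EC (edgeR log2 difference 1.69 ± 0.52 SE, adjusted p = 0.0477). The groups were apart for Bgn and Vcan, with 1 HE library far below the others for Vcan, whereas for Col5a2 the lowest HE library lay below the highest EC library.

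The other higher genes were Mmp14, a membrane-bound metalloproteinase (1.49 on the log2 scale), Col4a2 (1.15), Col4a1 (1.11), Col18a1, the collagen that carries endostatin (1.13), and Hapln1 (1.10). Col15a1, a basement membrane collagen, was called from very low levels, with 72 counts over the HE libraries and 1 count over the EC libraries. That ratio was 50.1 per unit of library size, with a 95% counting interval of 8.71 to 2007. Has2, the main hyaluronan synthase of the embryo, had 2.72, 6.38, 2.33 and 3.36 CPM in HE, against 13.6, 14.6 and 5.64 CPM in EC, and missed the threshold (edgeR log2 difference -1.61 ± 0.72 SE, adjusted p = 0.185).

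Of 10 endothelial markers 6 were higher in E8.5 HE, with sums of 1855 to 2838 CPM in HE and 1226 to 1424 CPM in EC, and their part in the result was not tested. In pools of cells, fewer cells of a type and less RNA per cell cannot be told apart. Col4a2, Col15a1, Agrn, Fbn1, Hapln1 and Timp3 passed in every run that left out 1 library, but each of the other 6 lost the call without 1 or more of the 3 EC libraries and HE replicates 2, 3 and 4 (adjusted p 0.053 to 0.244). The count was 6 without EC replicate 1, 7 without HE replicate 3, and 3 with E8.5 libraries alone in the fit.

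At E9.5 fewer genes passed than at E8.5, among the 40 as among all genes. Of the 40, 1 gene, Fbn1, was higher in HE, where 0.302% of all genes were, against 5.08% at E8.5. Fbn1 had 134, 66.5 and 121 CPM in HE, against 14.1, 15.4 and 21.1 CPM in EC (edgeR log2 difference 2.67 ± 0.40 SE, adjusted p = 0.00102), with every HE library above every EC library. It passed in every run that left out 1 library. The other 39 genes did not pass; the 3 smallest p-values among them belonged to Fn1 (edgeR log2 difference 1.01 ± 0.25 SE, adjusted p = 0.0833), Agrn (edgeR log2 difference 1.38 ± 0.40 SE, adjusted p = 0.205) and Eln (edgeR adjusted p = 0.209). Eln was at 0 in every E9.5 EC library and at 0.898, 0 and 0.0938 CPM in HE. Lama5 did not pass either (edgeR log2 difference 1.89 ± 0.56 SE, adjusted p = 0.224). Over the 40 genes the median was 0.45, against -0.01 for all genes, and was thus not smaller than the 0.29 of E8.5. DESeq2 called 6 of the 40 and a fit of the 2 compared populations alone also called 6. A block of same-numbered libraries within each day, chosen after seeing the data, called more than 1 as well, as given further on. Summed mesenchyme and smooth muscle markers were 323 to 479 CPM in HE and 92.3 to 278 CPM in EC, but edgeR called 0 of the 13 tested and their median was -0.39. Acta2 and Tagln carried the sums, the other 12 markers giving 28.3 to 42.8 CPM in HE and 35.6 to 70.6 CPM in EC. The part of the list was not tested.

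At E10.5, HE had more Fn1, Fbn1, Lama5, Col18a1, Eln and Has2 than EC, and less Hapln1. These were 6 genes higher and 1 lower of 40, where 2.11% of all genes were higher and 1.37% lower. The median of the 40 was 0.83, against 0.00 for all genes.

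Fn1 had 1363, 1961 and 1805 CPM in E10.5 HE, against 206, 453 and 321 CPM in E10.5 EC (edgeR log2 difference 2.39 ± 0.26 SE, adjusted p = 1.66e-06). Fbn1 had 168, 336 and 259 CPM in HE, against 18.8, 46.8 and 21.3 CPM in EC (edgeR log2 difference 3.13 ± 0.40 SE, adjusted p = 2.84e-05). Lama5 had 23.2, 39.9 and 35.7 CPM in HE, against 4.69, 6.11 and 4.52 CPM in EC (edgeR log2 difference 2.69 ± 0.57 SE, adjusted p = 0.00626). HE and EC libraries were far apart for all 3, and these calls held without any 1 library.

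Col18a1 had 597, 795 and 791 CPM in HE, against 187, 389 and 297 CPM in EC (edgeR log2 difference 1.32 ± 0.30 SE, adjusted p = 0.0107). Eln, which encodes elastin, had 8.21, 18.7 and 12.7 CPM in HE, against 0.688, 0.157 and 1.51 CPM in EC (edgeR log2 difference 4.06 ± 1.11 SE, adjusted p = 0.0483). Hapln1 had 248, 163 and 269.7 CPM in HE, against 444, 539 and 453 CPM in EC (edgeR log2 difference -1.08 ± 0.26 SE, adjusted p = 0.0173). None of these 3 pairs of groups overlapped. Has2 was low in both, at 6.27, 11.4 and 9.35 CPM in HE, against 0.301, 1.2 and 0.452 CPM in EC (edgeR log2 difference 3.79 ± 0.87 SE, adjusted p = 0.0115), and its groups did not overlap either. The exons of Has2 share 182 bases with Has2os on the opposite strand, and since the strand setting of the counting is not given, reads of the pair cannot be told apart.

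The Eln call was lost without any 1 of the 6 libraries, that of Has2 without EC replicate 1 or 3, that of Col18a1 without EC replicate 1 and that of Hapln1 without EC replicate 2 or HE replicate 2 (adjusted p 0.0611 to 0.161). The count of calls was 4 without EC replicate 1, 11 with DESeq2 and 13 in a fit of the 2 populations alone. A block of same-numbered libraries within each day, chosen after seeing the data, also gave 13. Mesenchyme and smooth muscle markers summed to 223 to 672 CPM in HE and 29.1 to 183 CPM in EC, none of the 14 at 0 throughout HE and 2 of the 14 at 0 throughout EC. Of the 13 tested edgeR called 0, and their median was 1.63. Acta2 and Tagln together gave 204 to 606 CPM in HE and 14.3 to 154 CPM in EC. The other 12 markers gave 18.6 to 65.7 CPM in HE and 11.01 to 28.1 CPM in EC, ranges that overlapped. The part of the list was not tested.

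**Figure D3:**
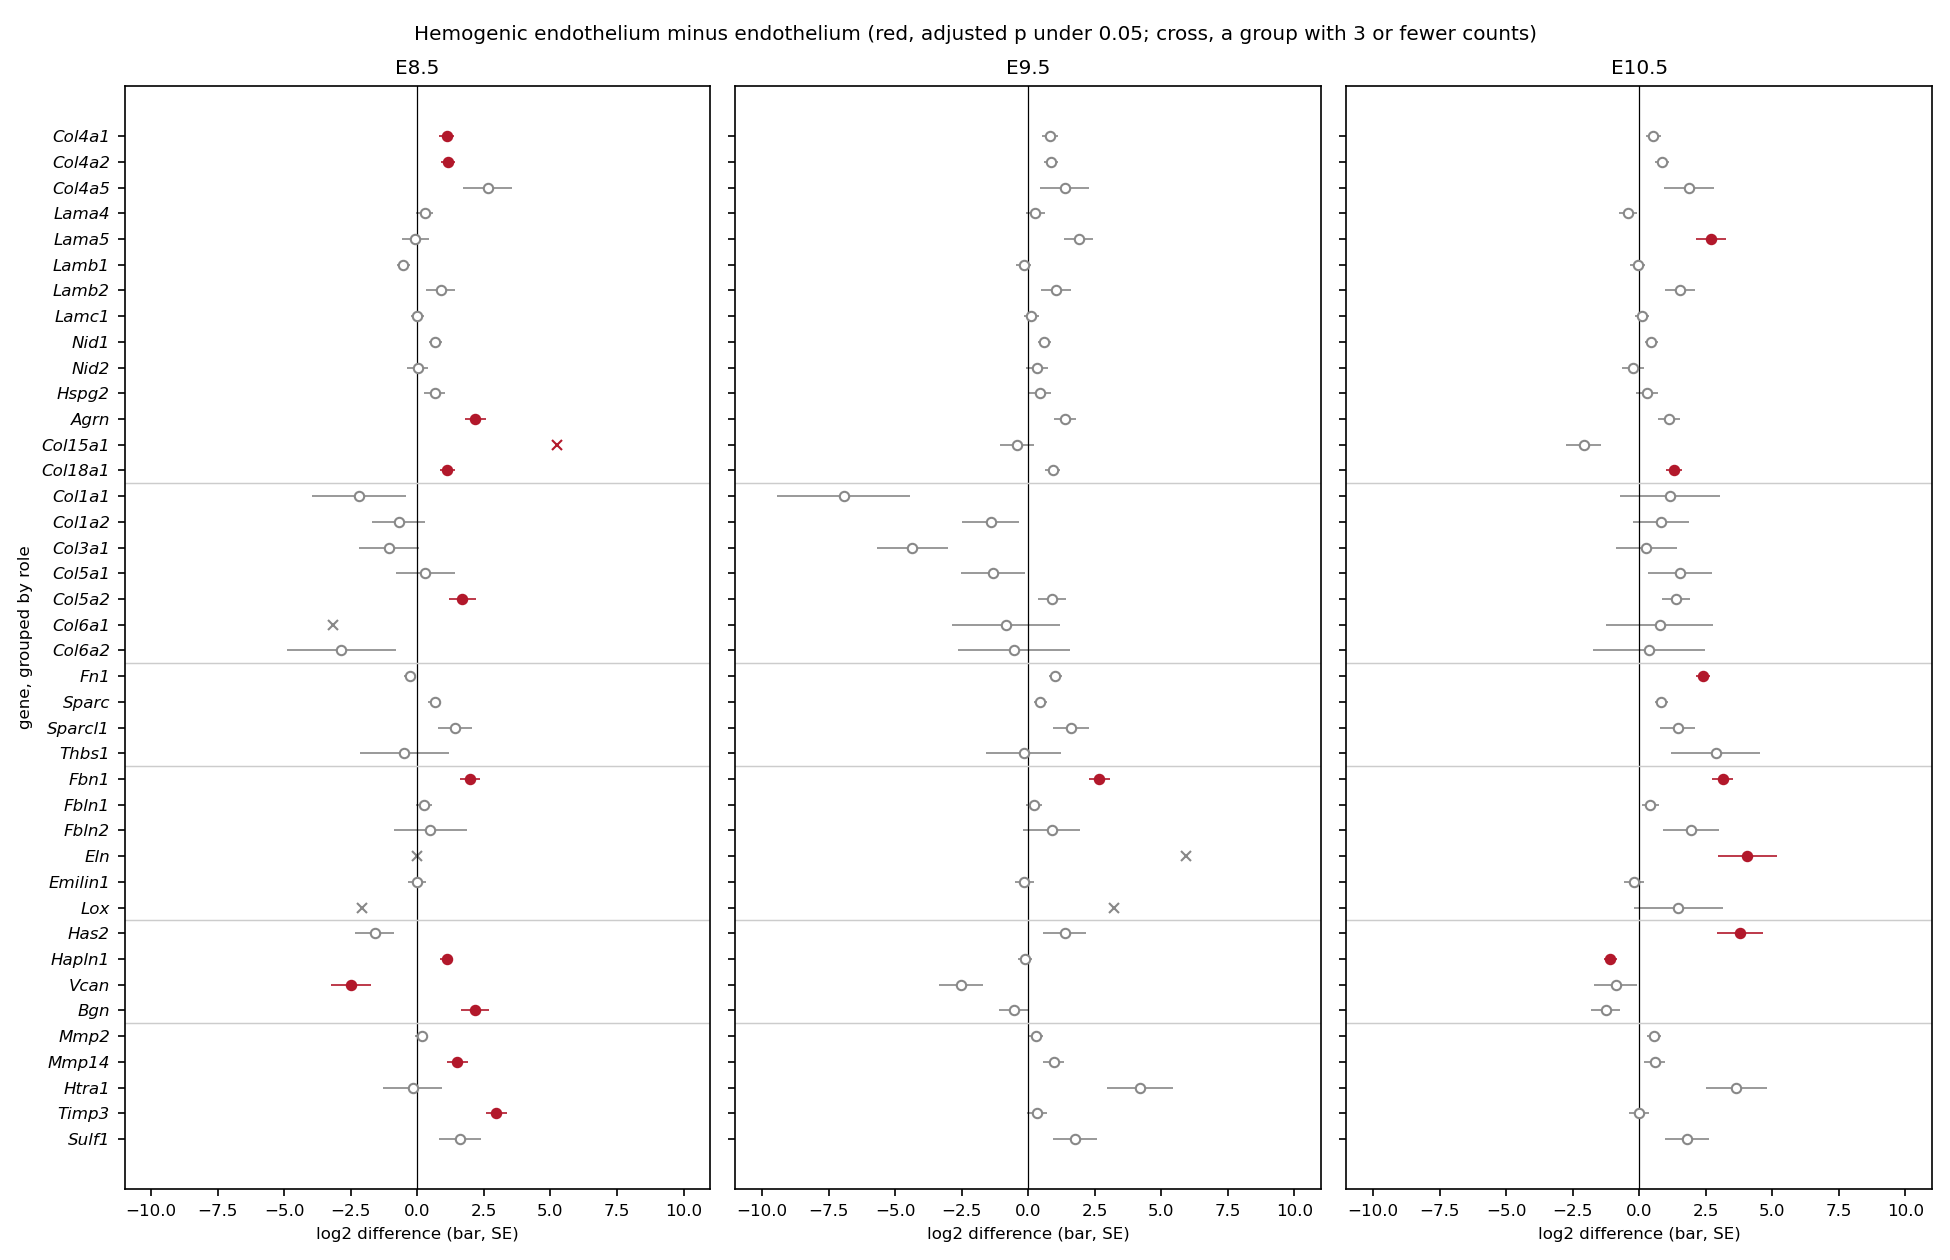
Log2 difference of HE against EC (± SE) of the 40 matrix genes on each day, on 1 axis per day; red marks an adjusted p under 0.05, and crosses mark genes with 3 or fewer counts in a group, whose fitted value is no bound. Red marks number 12 at E8.5, 1 at E9.5 and 7 at E10.5, with Fbn1 red on each day.

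The difference between HE and EC was then compared between days, as a test of the change itself. Between E8.5 and E10.5 it changed for 7 of the 40 genes, 3 upward and 4 downward, where 0.879% and 2.11% of all genes did. Upward changes belonged to Fn1, Has2 and Lama5. Fn1 differed by 2.39 between HE and EC at E10.5 and by -0.29 at E8.5 (change 2.68 ± 0.34 SE, edgeR adjusted p = 2.11e-05). Has2 differed by 3.79 at E10.5 and by -1.61 at E8.5 (change 5.40 ± 1.12 SE, edgeR adjusted p = 0.00494). Lama5 changed by 2.76 ± 0.75 SE (edgeR adjusted p = 0.0409). At E8.5 it had 2.02, 6.91, 4.04 and 3.27 CPM in HE, against 6.29, 5.73 and 0.690 CPM in EC, and those groups overlapped. Lama5 lost its call without any 1 of 10 of the 13 libraries (adjusted p 0.0669 to 0.122), the exceptions being E10.5 HE replicate 1, E8.5 HE replicate 2 and E8.5 EC replicate 3.

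Downward changes belonged to Timp3 (-2.98 ± 0.54 SE, edgeR adjusted p = 0.00126), Bgn (-3.43 ± 0.77 SE, edgeR adjusted p = 0.00975), Hapln1 (-2.18 ± 0.36 SE, edgeR adjusted p = 0.000488) and Col15a1. Bgn had 64.5, 69.5 and 66.6 CPM in E10.5 HE, against 203, 126 and 151 CPM in E10.5 EC, a difference that did not pass on that day (edgeR log2 difference -1.26 ± 0.54 SE, adjusted p = 0.245). Hapln1 passed in opposite directions on the 2 days, higher in HE at E8.5 and lower in HE at E10.5. For Col15a1 the fitted change of -7.32 ± 1.35 SE (edgeR adjusted p = 0.00156) rests on 1 count in E8.5 EC and is no bound. Timp3 also changed between E8.5 and E9.5 (-2.64 ± 0.53 SE, edgeR adjusted p = 0.00898), as did Col15a1 (-5.67 ± 1.38 SE, edgeR adjusted p = 0.0449). They were 2 of 40 where 0.683% of all genes changed downward. The Col15a1 call between E8.5 and E9.5 was lost without any 1 of 11 of the 13 libraries (adjusted p 0.0642 to 0.144), the exceptions being E8.5 HE replicate 1 and E9.5 EC replicate 2.

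Between E9.5 and E10.5 edgeR called 0 of the 40, where 0.0131% of all genes were called, with 5 of the 40 at an unadjusted p under 0.05 and 1 called by DESeq2. The smallest p-values were those of Fn1 (1.37 ± 0.35 SE, edgeR adjusted p = 0.302), Col3a1 (4.63 ± 1.71 SE, adjusted p = 0.634) and Col1a1 (8.10 ± 3.08 SE, adjusted p = 0.676).

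The next question was which matrix genes change as blood progenitors form. In E9.5 pro-HSC/HPC set against E9.5 HE, edgeR called 0 of the 40, DESeq2 called 0, and 8 had an unadjusted p under 0.05, where edgeR called 0.656% of all genes. Nid1, which links laminin to type IV collagen, had 410.3, 379 and 453 CPM in pro-HSC/HPC, against 582, 565 and 699 CPM in HE (edgeR log2 difference -0.57 ± 0.24 SE, adjusted p = 0.595). The 2 other smallest p-values belonged to Col15a1 (edgeR log2 difference -1.74 ± 0.65 SE, adjusted p = 0.447) and Eln (edgeR log2 difference 2.70 ± 1.07 SE, adjusted p = 0.522). Summed over the 40 genes, the share of counts was 0.688% ± 0.113 in pro-HSC/HPC and 0.736% ± 0.108 in HE (SD, n = 3 each), which is within the spread. The median of the 40 was -0.31, and a fit of the 2 populations alone called 1 gene, lower. Without the hemoglobin-rich libraries the count was again 0.

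At E10.5, pre-HSC I had less transcript than HE of 14 of the 40 genes, and the other 26 did not pass. Of all genes 3.8% were lower. The 14 included 8 of the 14 basement membrane genes, among them Col4a1 and Col4a2, 3 laminin chains, both nidogens and perlecan. Sparc, Sparcl1, Fbn1, Bgn, Mmp2 and Sulf1 made up the rest. The median of the 40 was -1.35.

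Sparc had 571, 282 and 382 CPM in pre-HSC I, against 1689, 1556 and 2068 CPM in E10.5 HE (edgeR log2 difference -2.10 ± 0.27 SE, adjusted p = 2.59e-05). Nid1 had 80.2, 111 and 146 CPM in pre-HSC I, against 351, 389 and 454 CPM in HE (edgeR log2 difference -1.82 ± 0.25 SE, adjusted p = 5.12e-05). Fbn1 had 60.6, 63.7 and 98.2 CPM in pre-HSC I, against 168, 336 and 259 CPM in HE (edgeR log2 difference -1.78 ± 0.38 SE, adjusted p = 0.00421). In all 3 the highest pre-HSC I library was well below the lowest HE library.

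Sulf1, which trims sulfate from heparan sulfate chains, had 0.707, 0 and 3.21 CPM in pre-HSC I, against 20.9, 12.7 and 13.2 CPM in HE (edgeR log2 difference -3.56 ± 0.89 SE, adjusted p = 0.0131). Sparcl1, a relative of Sparc, had 35.1, 34.9 and 41.1 CPM in pre-HSC I, against 107, 375 and 245 CPM in HE (edgeR log2 difference -2.71 ± 0.69 SE, adjusted p = 0.0153). Bgn had 23.2, 5.19 and 18.3 CPM in pre-HSC I, against 64.5, 69.5 and 66.6 CPM in HE (edgeR log2 difference -2.10 ± 0.56 SE, adjusted p = 0.0204). The groups were again apart, although HE libraries of Sparcl1 and pre-HSC I libraries of Bgn were widely spread.

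The other lower genes were Hspg2, which encodes perlecan (-1.51 on the log2 scale), the gelatinase Mmp2 (-1.44), Lama4 (-1.42), Nid2 (-1.40), Col4a2 (-1.25), Col4a1 (-1.25) and the laminin chains Lamb1 (-1.18) and Lamc1 (-1.12). Nid2 shares 386 exonic bases with 2700060E02Rik on the opposite strand, so its reads are uncertain, and its call was lost without any 1 library. Of 10 endothelial markers 8 were lower too, with sums of 1056 to 1419.9 CPM in pre-HSC I and 3511 to 3823 CPM in HE; Cdh5 differed by -1.13 on the log2 scale. Of 9 macrophage and granulocyte markers 4 were higher, with sums of 86.5 to 132 CPM in pre-HSC I and 14.4 to 18.8 CPM in HE. The part of either list was not tested.

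Col4a2, Nid1, Sparc, Fbn1 and Mmp2 passed in every run that left out 1 library. Each of the other 9 lost the call without 1 or more of the 6 libraries (adjusted p 0.0505 to 0.236), and the count was 7 without pre-HSC I replicate 2 and 9 without pre-HSC I replicate 1. Without the hemoglobin-rich pre-HSC I replicate 3 it was 12, and without all 3 hemoglobin-rich libraries 11.

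Pre-HSC II had less than pre-HSC I of 26 of the 40 genes, and the other 14 did not pass, while 4.28% of all genes were lower. All roles were touched: 10 of the 14 basement membrane genes, 2 of the 7 fibril-forming and type VI collagens, 3 of the 4 adhesive glycoproteins, 2 of the 6 microfibril and elastic fibre genes, all 4 hyaluronan and proteoglycan genes and all 5 remodelling genes. Over the 40 genes the median was -2.51, and -2.46 with the 2 genes that were at 0 in a group set at their bound.

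Fbn1 had 6.58, 3.09 and 7.85 CPM in pre-HSC II, against 60.6, 63.7 and 98.2 CPM in pre-HSC I (edgeR log2 difference -3.67 ± 0.42 SE, adjusted p = 1.13e-06). Nid1 had 11.9, 16.1 and 12.7 CPM in pre-HSC II, against 80.2, 111 and 146 CPM in pre-HSC I (edgeR log2 difference -3.05 ± 0.27 SE, adjusted p = 3.26e-08). Col5a2 had 7.31, 2.16 and 8.72 CPM in pre-HSC II, against 64.0, 144 and 99.9 CPM in pre-HSC I (edgeR log2 difference -4.09 ± 0.59 SE, adjusted p = 2.89e-05). Pre-HSC II libraries were low throughout and did not reach any pre-HSC I library.

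Htra1, a secreted serine protease, had 0.0383, 0.407 and 0.192 CPM in pre-HSC II, against 6.16, 21.1 and 11.4 CPM in pre-HSC I (edgeR log2 difference -5.89 ± 1.32 SE, adjusted p = 0.00523). Sparcl1 had 7.73, 1.79 and 0.0479 CPM in pre-HSC II, against 35.1, 34.9 and 41.1 CPM in pre-HSC I (edgeR log2 difference -3.52 ± 0.73 SE, adjusted p = 0.00252). Col3a1, the chain of type III collagen, had 0, 0.0813 and 0.0479 CPM in pre-HSC II, against 27.4, 0.905 and 10.8 CPM in pre-HSC I (edgeR adjusted p = 0.00506). The groups did not overlap for any of the 3, but the pre-HSC I libraries of Col3a1 were themselves far apart. Its ratio over the groups, 3 counts against 817, was 0.00331 with a 95% counting interval of 0.000681 to 0.0097.

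The remaining called genes, other than Sulf1, included Has2 (-4.76 on the log2 scale), Col15a1 (-4.04) and Vcan (-3.79). Bgn (-2.92), Col4a2 (-2.65), Sparc (-2.59), Col4a1 (-2.58), Mmp2 (-2.51), Nid2 (-2.41), Lamb1 (-2.27), Mmp14 (-2.24), Hspg2 (-2.19), Col18a1 (-2.13) and Timp3 (-2.02) were lower as well. Fn1 (-1.83), Agrn (-1.83), Fbln1, a fibulin of elastic fibres and basement membranes (-1.80), Hapln1 (-1.56) and Lamc1 (-0.97) completed them. Sulf1 was called from 1 count in pre-HSC II and 90 in pre-HSC I, a ratio of 0.0100 with a 95% counting interval of 0.000251 to 0.0572.

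Levels that remained in pre-HSC II were not zero for the main scaffold genes: Col4a1 had 51.2, 45.1 and 79.8 CPM in pre-HSC II, against 275, 322 and 459 CPM in pre-HSC I. Of the 26 genes, 23 passed in every run that left out 1 library. The calls of Sulf1, Vcan and Lamc1 were lost without pre-HSC I replicate 3, and those of Vcan or Lamc1 also without 1 or another pre-HSC II library (adjusted p 0.0732 to 0.294), and without the hemoglobin-rich libraries the count was 23. Beside them, 8 of 10 endothelial markers were lower, with sums of 364 to 452 CPM in pre-HSC II and 1056 to 1419.9 CPM in pre-HSC I. The mesenchyme and smooth muscle markers Foxf1 and Tagln were lower as well, the list of 14 summing to 34.1 to 38.3 CPM in pre-HSC II and 136 to 325 CPM in pre-HSC I. Acta2 and Tagln together gave 28.3 to 32.2 CPM in pre-HSC II and 125 to 301 CPM in pre-HSC I. The other 12 markers gave 5.73 to 6.12 CPM in pre-HSC II and 11.3 to 24.3 CPM in pre-HSC I. The part of either list was not tested.

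Set against pro-HSC/HPC of the day before, pre-HSC I had less of 5 of the 40 genes, where 1.22% of all genes were lower, and the other 35 did not pass. Nid1 had 80.2, 111 and 146 CPM in pre-HSC I, against 410.3, 379 and 453 CPM in pro-HSC/HPC (edgeR log2 difference -1.88 ± 0.25 SE, adjusted p = 0.000258). Hapln1 had 271, 191 and 295 CPM in pre-HSC I, against 629, 882 and 723 CPM in pro-HSC/HPC (edgeR log2 difference -1.56 ± 0.26 SE, adjusted p = 0.00158). Lama4 had 47.3, 13 and 35.7 CPM in pre-HSC I, against 96.4, 105 and 113 CPM in pro-HSC/HPC (edgeR log2 difference -1.71 ± 0.36 SE, adjusted p = 0.0119). Every pre-HSC I library was below every pro-HSC/HPC library.

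The same held for Nid2, with 15.3, 7.24 and 15.2 CPM in pre-HSC I, against 37.2, 34.9 and 48.3 CPM in pro-HSC/HPC (edgeR log2 difference -1.67 ± 0.44 SE, adjusted p = 0.0492). It held too for Sparc, with 571, 282 and 382 CPM in pre-HSC I, against 991, 1018 and 880.5 CPM in pro-HSC/HPC (edgeR log2 difference -1.23 ± 0.26 SE, adjusted p = 0.0122). The 3 genes other than Nid1 and Hapln1 lost the call without 1 or more of the 6 libraries (adjusted p 0.0529 to 0.29). The count was 3 without pro-HSC/HPC replicate 1 or 3, 2 without pre-HSC I replicate 2, 9 with DESeq2, and 1 without the 3 hemoglobin-rich libraries, with 1 pro-HSC/HPC library left. Of 10 endothelial markers 1, Cdh5, was lower in pre-HSC I (-1.13), with sums of 1056 to 1419.9 CPM in pre-HSC I and 2271 to 2701 CPM in pro-HSC/HPC. So were Foxf1 of the mesenchyme list (-2.48) and the cardiac markers Myl4 (-3.10) and Myl7 (-5.67), and the part of these lists was not tested. This pair of groups differs in day and tissue label as well as in population.

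**Figure D4:**
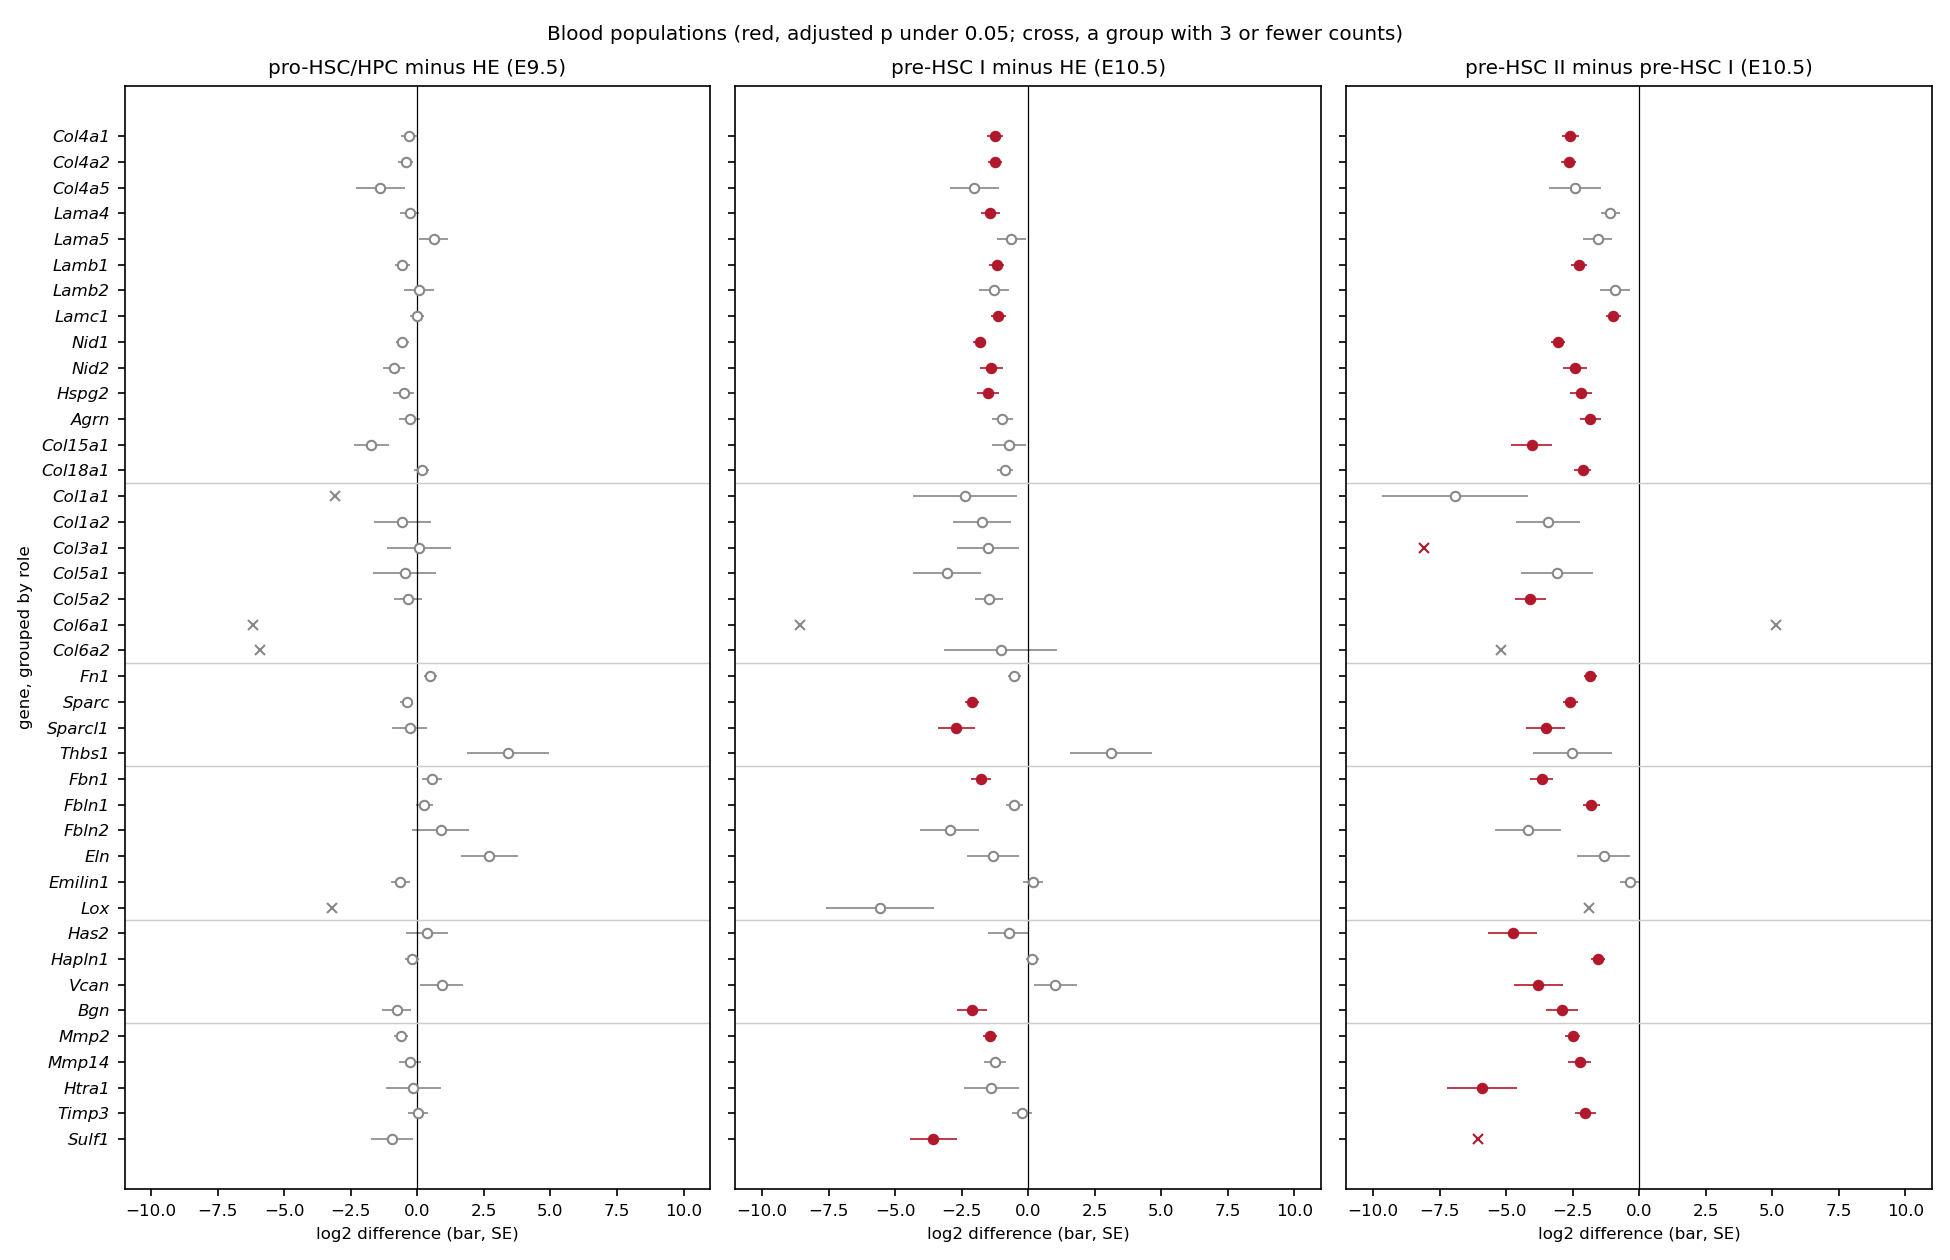
Log2 difference (± SE) of the 40 matrix genes in E9.5 pro-HSC/HPC against E9.5 HE, in E10.5 pre-HSC I against E10.5 HE and in E10.5 pre-HSC II against E10.5 pre-HSC I; red marks an adjusted p under 0.05, and crosses mark genes with 3 or fewer counts in a group, whose fitted value is no bound. Red marks number 0, 14 and 26, all of them left of 0.

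Changes with embryonic day were then read within each population. EC of E9.5 had more transcript than EC of E8.5 for 12 of the 40 genes and less for 2, on a wide background: 10.1% of all genes were higher and 9.56% were lower. The higher genes were 7 of the 14 basement membrane genes, Col3a1, Col5a2, Hapln1, Bgn and Timp3, and the lower ones were Fn1 and Has2. The median of the 40 was 0.86, against 0.05 for all genes; it was 0.91 without the 2 genes that had 3 or fewer counts in both groups.

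Col15a1 had 34.5, 24.0 and 51.9 CPM in E9.5 EC, against 0, 0.0392 and 0 CPM in E8.5 EC (edgeR adjusted p = 4.03e-07). The 2572 counts against 1 gave a ratio of 2431 with a 95% counting interval of 436 to 96073. Timp3 had 112, 163 and 157 CPM in E9.5 EC, against 3.59, 7.61 and 1.76 CPM in E8.5 EC (edgeR log2 difference 5.04 ± 0.45 SE, adjusted p = 2.73e-08). Both were low or at 0 in every E8.5 EC library and high in every E9.5 EC library.

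Col5a2 had 60.9, 35.1 and 78.5 CPM in E9.5 EC, against 8.90, 11.6 and 2.38 CPM in E8.5 EC (edgeR log2 difference 2.92 ± 0.56 SE, adjusted p = 0.000737). Bgn had 181, 177 and 102 CPM in E9.5 EC, against 10.8, 10.8 and 40.7 CPM in E8.5 EC (edgeR log2 difference 2.89 ± 0.58 SE, adjusted p = 0.00101). Col3a1 had 18.1, 14.7 and 107 CPM in E9.5 EC, against 1.81, 1.41 and 5.39 CPM in E8.5 EC (edgeR log2 difference 4.03 ± 1.30 SE, adjusted p = 0.0299). Groups were apart for all 3, with 1 E9.5 library of Col3a1 standing far above its 2 partners.

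Has2 went the other way, with 1.33, 0.993 and 1.88 CPM in E9.5 EC, against 13.6, 14.6 and 5.64 CPM in E8.5 EC (edgeR log2 difference -3.00 ± 0.83 SE, adjusted p = 0.012). Fn1 did so as well, with 631, 445 and 667 CPM in E9.5 EC, against 1533, 1509 and 1819 CPM in E8.5 EC (edgeR log2 difference -1.48 ± 0.25 SE, adjusted p = 0.000219). For neither gene did the libraries of the days overlap. The other higher genes were Hspg2 (1.54 on the log2 scale), Agrn (1.502), Hapln1 (1.40), Col4a2 (1.36), Col4a1 (1.30), Lamc1 (0.89) and Nid1 (0.82). Acta2 and Tagln, smooth muscle markers, were 3.37 and 5.83 higher on the log2 scale, the list of 14 summing to 92.3 to 278 CPM in E9.5 EC and 54.5 to 81.9 CPM in E8.5 EC. They were the 2 of 13 tested that were higher, the median of the list was -0.19, and the other 12 markers gave 35.6 to 70.6 CPM in E9.5 EC and 49.5 to 76.4 CPM in E8.5 EC. Of 10 endothelial markers 4 were higher too (Emcn by 4.16, Cdh5 by 2.30, Tie1 by 1.73 and Flt1 by 1.08), with sums of 2343 to 2788 CPM in E9.5 EC and 1226 to 1424 CPM in E8.5 EC. The part of either list was not tested. Col3a1, Lamc1, Nid1, Hspg2, Agrn and Has2 lost the call without 1 or more of E8.5 EC replicates 1 and 2 and E9.5 EC replicates 1, 2 and 3 (adjusted p 0.0502 to 0.203).

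Between E9.5 and E10.5 EC differed in 1 gene, where 0.308% of all genes were higher. Eln had 0.688, 0.157 and 1.51 CPM in E10.5 EC, against 0, 0 and 0 CPM in E9.5 EC (edgeR adjusted p = 0.046). The 49 counts against 0 are at least 18.4-fold higher, taking 3 counts over the E9.5 group as the floor, and the call was lost without any 1 of the 6 libraries (adjusted p 0.0557 to 0.195). Of the others, Hapln1 (edgeR log2 difference -0.96 ± 0.26 SE, adjusted p = 0.0787) and Fn1 (edgeR log2 difference -0.83 ± 0.25 SE, adjusted p = 0.116) did not pass.

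In HE, 12 of the 40 genes were higher at E9.5 than at E8.5 and the other 28 did not pass, where 2.97% of all genes were higher. The 12 were 7 of the 14 basement membrane genes, Col5a2, Fbn1, Fbln2, Eln and Timp3. Over all 40 genes the median was 0.77. In both EC and HE, 8 genes were higher at E9.5, which is 8 of the 12 in each. They were Col4a1, Col4a2, Col5a2, Col15a1, Lamc1, Nid1, Hspg2 and Timp3. The share of all genes higher in both was not counted. The labels do not say whether EC and HE libraries of a day come from separate embryos.

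Col15a1 had 18.9, 26.1 and 36.6 CPM in E9.5 HE, against 0, 1.38, 0.903 and 0.761 CPM in E8.5 HE (edgeR log2 difference 5.15 ± 0.69 SE, adjusted p = 6.45e-05). Timp3 had 160.1, 139 and 241 CPM in E9.5 HE, against 18.6, 28.04, 60.1 and 30.1 CPM in E8.5 HE (edgeR log2 difference 2.40 ± 0.36 SE, adjusted p = 0.000339). Fbn1 had 134, 66.5 and 121 CPM in E9.5 HE, against 25.0, 26.7, 47.7 and 38.7 CPM in E8.5 HE (edgeR log2 difference 1.63 ± 0.35 SE, adjusted p = 0.0063). The days did not overlap, and these 3 calls held without any 1 library.

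Col5a2 had 131, 80.7 and 111 CPM in E9.5 HE, against 9.47, 21.1, 48.9 and 20.0 CPM in E8.5 HE (edgeR log2 difference 2.11 ± 0.49 SE, adjusted p = 0.0108). Lama5 had 18.2, 7.86 and 19.1 CPM in E9.5 HE, against 2.02, 6.91, 4.04 and 3.27 CPM in E8.5 HE (edgeR log2 difference 1.89 ± 0.51 SE, adjusted p = 0.0248). Hspg2 had 142, 78.9 and 168 CPM in E9.5 HE, against 36.1, 66.3, 66.0 and 37.8 CPM in E8.5 HE (edgeR log2 difference 1.33 ± 0.38 SE, adjusted p = 0.0336). Here as well every E9.5 library was above every E8.5 library, though for Lama5 the lowest E9.5 value came close to the highest E8.5 value.

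The others were Fbln2, a fibulin of elastic fibres and basement membranes (3.82 on the log2 scale, at most 2.63 CPM in any library of either group), Col4a2 (1.07), Col4a1 (1.01), Lamc1 (1.00) and Nid1 (0.75). Eln had 21 counts at E9.5 and 0 at E8.5, at least 10.2-fold higher taking the same floor over the E8.5 group, but 1 of the 3 E9.5 libraries was at 0 as well. Acta2 and Tagln were 5.06 and 3.05 higher in E9.5 HE, the list of 14 summing to 323 to 479 CPM in E9.5 HE and 36.1 to 102 CPM in E8.5 HE. They were the 2 of 13 tested that were higher, the median of the list was -0.11, and the other 12 markers gave 28.3 to 42.8 CPM in E9.5 HE and 20.6 to 39.3 CPM in E8.5 HE. The endothelial markers Emcn (1.55) and Cdh5 (1.25) were higher as well, 2 of 10, with sums of 3019 to 3680 CPM in E9.5 HE and 1855 to 2838 CPM in E8.5 HE. The part of either list was not tested. The 9 genes other than Col15a1, Timp3 and Fbn1 lost the call without 1 or more of the 7 libraries (adjusted p 0.0504 to 0.249). The count was 3 without E8.5 HE replicate 1, 7 without E8.5 HE replicate 4, 4 without E9.5 HE replicate 1, 5 without E9.5 HE replicate 3 and 6 in a fit of the 2 populations alone.

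HE of E10.5 had more Eln and Fbln2 and less Hapln1 than HE of E9.5, 2 higher and 1 lower of the 40, where 1.49% and 2.15% of all genes were. Eln had 8.21, 18.7 and 12.7 CPM in E10.5 HE, against 0.898, 0 and 0.0938 CPM in E9.5 HE (edgeR log2 difference 5.30 ± 1.19 SE, adjusted p = 0.0156). Fbln2 had 24.4, 28.7 and 27.6 CPM in E10.5 HE, against 1.46, 0.480 and 2.63 CPM in E9.5 HE (edgeR log2 difference 4.14 ± 1.18 SE, adjusted p = 0.0473). Hapln1 had 248, 163 and 269.7 CPM in E10.5 HE, against 737, 860.2 and 965 CPM in E9.5 HE (edgeR log2 difference -1.91 ± 0.27 SE, adjusted p = 0.000297). All 3 pairs of groups were far apart. The Fbln2 call was lost without any 1 of the 6 libraries and that of Eln without E9.5 HE replicate 3 or E10.5 HE replicate 2 (adjusted p 0.0612 to 0.159). Without either of those 2 libraries the count was 1, whereas DESeq2 called 6, and a fit of the 2 populations alone called 11.

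Of the 40 genes, 10 passed in none of the comparisons: Col1a1, Col1a2, Col4a5, Col5a1, Col6a1, Col6a2, Lamb2, Emilin1, Lox and Thbs1. They hold 5 of the 7 fibril-forming and type VI collagens. Emilin1, a glycoprotein of elastic fibres, was well expressed, its mean running between 39.4 CPM in pre-HSC II and 92.6 CPM in E8.5 EC. The type VI chains were low, the highest mean of Col6a1 being 2.05 CPM in E10.5 HE and that of Col6a2 0.474 CPM in E9.5 EC, and the cross-linking enzyme Lox reached a mean of 3.27 CPM in E10.5 HE.

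Col1a1 and Thbs1 were high in single libraries, as the plot by library shows. Col1a1, the main chain of type I collagen, had 116, 0.147 and 0.0439 CPM in E10.5 HE, 0, 50.6 and 1.46 CPM in E10.5 EC and 0.374, 0.475 and 97.9 CPM in E9.5 EC, so that 1 library of each group held nearly all of it. Thbs1, the platelet and matrix glycoprotein thrombospondin 1, had 3.86, 115 and 103 CPM in pro-HSC/HPC, against 4.11, 6.42 and 10.4 CPM in E9.5 HE (edgeR log2 difference 3.41 ± 1.54 SE, adjusted p = 0.651). It was high in the same 2 pro-HSC/HPC libraries whose megakaryocyte and platelet markers summed to 259 and 613 CPM, against 25.0 CPM in the remaining one, and whose erythroid markers were high. Without the 3 hemoglobin-rich libraries the Thbs1 difference had the opposite sign (-0.85 ± 2.32 SE, edgeR adjusted p = 1). In pre-HSC I the platelet list summed to 109, 179 and 131 CPM and Thbs1 stood at 12.5, 2.19 and 67.2 CPM, the last in the hemoglobin-rich library. In pre-HSC II the list summed to 306, 204 and 191 CPM and Thbs1 stood at 5.78, 1.06 and 7.52 CPM. The part of these markers in the Thbs1 level was not tested.

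**Figure D5:**
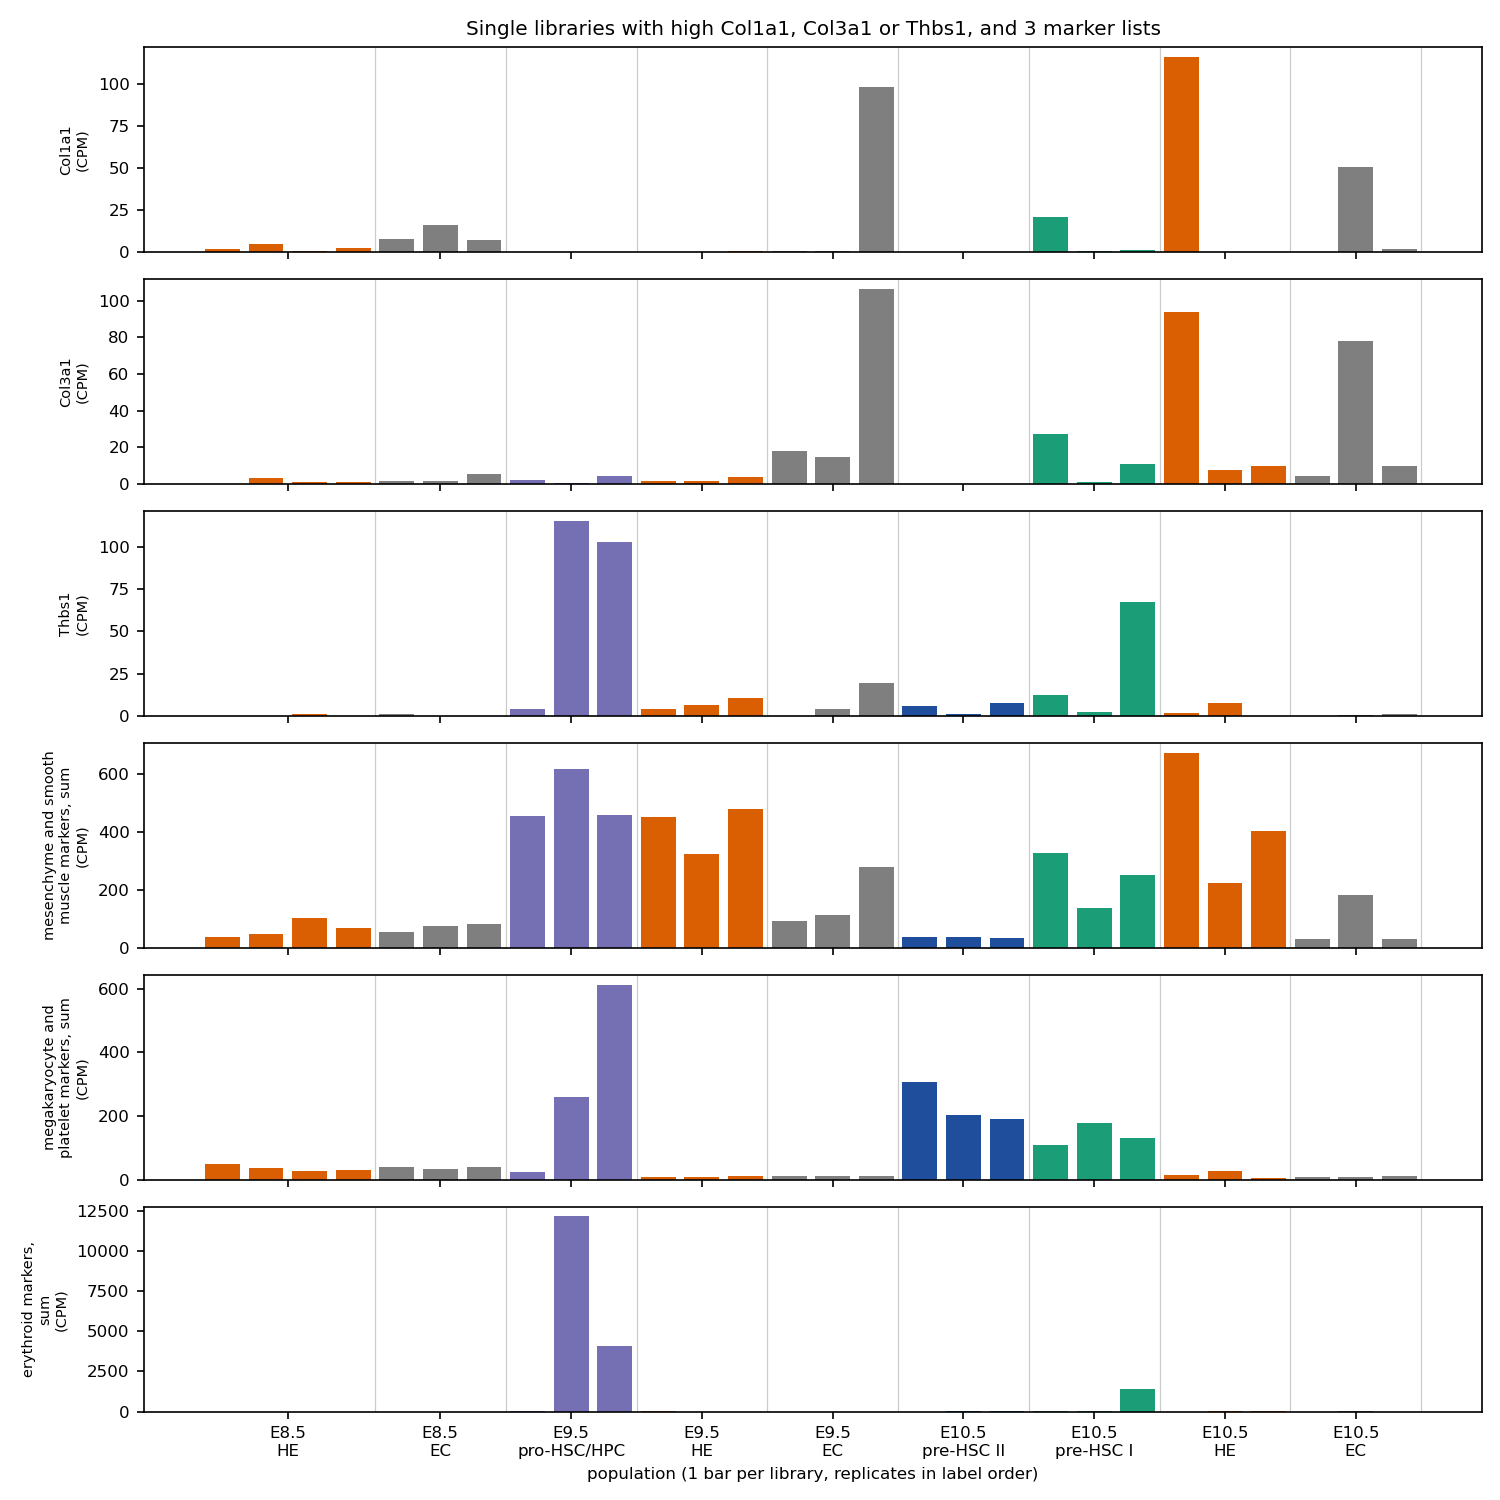
CPM of Col1a1, Col3a1 and Thbs1 and summed CPM of mesenchyme and smooth muscle, megakaryocyte and platelet, and erythroid markers in each of the 28 libraries (bars, 1 per library, coloured by population). Col1a1 exceeds 50 CPM in 3 libraries. Thbs1 is at 115 and 103 CPM in the 2 of the 3 pro-HSC/HPC libraries with the most erythroid and platelet marker transcript. In pre-HSC II, with platelet sums of 191 to 306 CPM, Thbs1 is at 1.06 to 7.52 CPM.

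Other genes of the pathway were counted from 5 lists, to be read against the shares of all genes called. HE against EC, these were 5.08% higher and 1.73% lower at E8.5, 0.302% higher at E9.5, and 2.11% higher and 1.37% lower at E10.5. Pre-HSC I against HE had 3.8% lower and pre-HSC II against pre-HSC I 4.28% lower. E9.5 against E8.5 had 10.1% higher and 9.56% lower in EC and 2.97% higher and 3.58% lower in HE. Of 23 other basement membrane genes tested, 3 were higher in E8.5 HE than in EC, among them Hmcn1 (hemicentin, 4.47 on the log2 scale) and Mmrn2, an endothelial matrix glycoprotein (1.99). At E10.5, 1 was higher in HE, the laminin alpha 3 gene Lama3 (3.52), and 2 were lower, Lama1 (-2.51) and Frem1 (-2.66). Pre-HSC I had less of 4 than E10.5 HE, among them Egfl7 (-1.29) and Pxdn, the peroxidase that cross-links type IV collagen (-1.19). Pre-HSC II had less of 8 than pre-HSC I. Between E8.5 and E9.5, 7 were higher and 1 lower in EC, and 3 were higher and 1 lower in HE, the lower one being Egfl7 in both (-1.71 in EC and -1.11 in HE).

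Of 41 other interstitial matrix genes, 6 were higher in E8.5 HE than in EC, among them Ltbp1 (2.92) and Fbn2 (1.30), and 2 in E9.5 HE, Vwf (3.19) and Ecm1 (1.10). At E10.5, 4 were higher in HE and 1 was lower, with Ltbp1 at 3.45, Vwf at 2.72 and the microfibril gene Mfap2 at 1.36. Pre-HSC I had less of 7 than E10.5 HE, and pre-HSC II less of 11 than pre-HSC I. Of 25 genes for collagen synthesis and cross-linking, 2 were higher and 1 lower in HE at E8.5 and again at E10.5, the lower one being the prolyl hydroxylase gene P4ha1 both times (-0.75 and -1.11). The chaperone gene Serpinh1 (-1.70) was among 8 that were lower in pre-HSC II than in pre-HSC I.

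Of 31 matrix receptors, Cd44, a hyaluronan receptor, and Itgb3, the integrin beta 3 chain, were the 2 that were higher in E9.5 HE than in EC (2.52 and 2.12). At E10.5 they were among 4 that were higher (3.38 and 3.84), with Sdc1 (1.96) and Itgav (1.26), and at E8.5 Itgb3 was among 5 (4.40). The change of the HE and EC difference between E8.5 and E9.5 was upward for Cd44 (2.47), where it was for 0.164% of all genes. It was downward for 1 other receptor, where it was for 0.683% of all genes. Pro-HSC/HPC had more Itgb3 than E9.5 HE (3.03) and less Itga3, a laminin receptor chain (-1.42), where 0.505% of all genes were higher and 0.151% lower. Without the hemoglobin-rich libraries Itgb3 still passed (2.96, edgeR adjusted p = 0.00263) and Itga3 did not (-1.43, edgeR adjusted p = 0.86). Pre-HSC I had more Itgb3 (2.22) and Cd47 (1.81) than E10.5 HE, where 3.08% of all genes were higher, and less of 4 others, among them Itga3 (-1.32) and Itga1 (-1.88). Without those libraries Itgb3 and Cd47 passed there too, whereas Itga3 and Itga1 did not (edgeR adjusted p = 0.057 and 0.115). It had more Cd47 than pro-HSC/HPC (1.39), where 0.23% of all genes were higher, a call that was lost without them (edgeR adjusted p = 0.509). Itga3 was also lower in EC of E10.5 than of E9.5 (-1.32), where 0.453% of all genes were. Pre-HSC II had less of 8 than pre-HSC I, among them Itga3 (-3.09). Of 34 other proteases, inhibitors and enzymes of hyaluronan and heparan sulfate, 5 were higher in E8.5 HE than in EC, among them Plat, the tissue plasminogen activator (4.68). At E10.5, 3 were higher, among them Plat (2.65) and the cathepsin gene Ctsl (1.10), and 2 were lower. Pre-HSC I had less of 7 than E10.5 HE, among them Plat (-2.94).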

How the data were processed

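Values are raw counts per gene and library, as the authors deposited them in 1 table; gene coordinates are mm9 per the file headers. The submitters' processing notes name TopHat, SAMtools, Subread, featureCounts 1.6.2 and mm9. The annotation release and the strand setting were not given in the sources used here, nor was the handling of multi-mapped reads. Per the labels' protocols, sorted cells went directly into lysis buffer and a SMARTer Ultra Low Input kit made the cDNA.

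Counts of all 28 libraries were fitted with edgeR 4.0.16 (R 4.3.3; limma 3.58.1) by the quasi-likelihood test, with TMM scaling, filterByExpr at a minimum count of 10 and 1 coefficient per population. Of 24015 genes 2723 were at 0 in every library and 15238 were tested; p-values were adjusted by Benjamini-Hochberg over all of them, and an adjusted p under 0.05 was called. The standard error is the log2 difference divided by the square root of F. The same script was tested on simulated counts. DESeq2 1.42.0, other filters, other scaling, a replicate block and leaving out each library were alternatives. Replicates of 1 population correlated at 0.907 to 0.956 (log2 CPM). The series states that biological replicates are included, but the labels do not say which libraries come from separate embryos or litters, so p-values measure the spread between these libraries, which may be partly technical. Counting intervals are exact and, like floors of 3 counts, cover counting error only.

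The 40 genes and the other lists were chosen with earlier results of these data known. All 40 are accounted for: every called gene is named, and the up to 6 per comparison that changed most, among those averaging 10 CPM or more in either group, are given in every library. Where none was called, the 3 with the smallest p are named, and up to 4 with the smallest p per other list may be.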

Additional observations from a re-analysis of the deposited data

Results flagged for a closer look

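In 4 genes 1 library of the E8.5 HE group of 4 lay far from its partners by Dixon's criterion. For normally distributed values it flags about 1 in 20 groups by chance, a rate that does not hold for counts near 0. Col4a5 had 20.8 CPM and Thbs1 had 1.14 CPM in replicate 3. Col6a1 had 0.0776 CPM (2 counts) in replicate 1 and Col6a2 had 0.192 CPM (5 counts) in replicate 2. For Col6a1 and Col6a2 every partner was at 0, so any count at all would have been flagged. None of the 4 passed in any comparison.

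The difference between HE and EC changed between days for 7 genes by edgeR's interaction contrast. At E9.5 against E8.5 it differed by -2.64 for Timp3 and by -5.67 for Col15a1 on the log2 scale. At E10.5 against E8.5 it differed by 2.68 for Fn1, 5.40 for Has2 and 2.76 for Lama5, and by -2.98 for Timp3, -2.18 for Hapln1, -3.43 for Bgn and -7.32 for Col15a1. Both Col15a1 values rest on 1 count in E8.5 EC.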

How the results depend on the processing

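Of 104 calls of the 40 genes over all comparisons and changes between days, 59 held in every run that left out 1 library, 62 under every other setting, and 51 under all; 0 reversed. The range of the count of called genes when 1 library was left out was 6 to 13 for E8.5 HE against EC, 1 to 1 at E9.5, 4 to 6 at E10.5, 0 to 0 for pro-HSC/HPC against HE, 7 to 12 for pre-HSC I against HE and 23 to 27 for the step to pre-HSC II. It was 10 to 14 for EC of E9.5 against E8.5, 0 to 0 for EC of E10.5 against E9.5, 3 to 13 and 1 to 3 for the same pairs of days in HE, and 2 to 4 for pre-HSC I against pro-HSC/HPC. For the change of the HE and EC difference it was 1 to 4 (E9.5 against E8.5), 0 to 0 (E10.5 against E9.5) and 6 to 7 (E10.5 against E8.5).

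DESeq2's Wald test gave 6 calls for E9.5 HE against EC, 11 at E10.5, 3 for EC of E10.5 against E9.5, 6 for HE of those days, 9 for pre-HSC I against pro-HSC/HPC, and 4 and 1 for the changes of E9.5 against E8.5 and of E10.5 against E9.5. Without a filter the count was 2 for E9.5 HE against EC and 6 for HE of E10.5 against E9.5; with a filter of 10 CPM in 3 libraries it was 0 for EC of E10.5 against E9.5, since Eln is then not tested. Fits of the compared populations alone gave 3 at E8.5, 6 at E9.5 and 13 at E10.5 for HE against EC, 1 for pro-HSC/HPC against HE, 0 for EC of E10.5 against E9.5, 6 and 11 for HE of E9.5 and E10.5 against the day before, and 1 for the change of E9.5 against E8.5. The cause was not tested.

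A replicate block over all libraries, in which E8.5 HE replicate 4 drops out, gave 2 for EC of E10.5 against E9.5, 8 for pre-HSC I against pro-HSC/HPC and 1 for the change of E9.5 against E8.5. Its other counts were 10, 1 and 9 for HE against EC by day, 0, 16 and 26 along the blood series, 15 for EC and 11 for HE of E9.5 against E8.5, 3 for HE of E10.5 against E9.5, and 0 and 6 for the later changes. A block of same-numbered libraries within each day, chosen after seeing the data, gave 7 at E9.5 and 13 at E10.5 for HE against EC, and 5 and 1 for the changes of E9.5 against E8.5 and of E10.5 against E9.5. Deviations of same-numbered libraries of 1 day correlated at 0.0286 to 0.229, and in 17 of 18 cases a library correlated best with its own number. That is a hint of pairing within a day, from the data and not the design. Between days the correlations were -0.0908 to 0.0871, which does not bear on pairing within a day. Since the labels do not say which libraries share embryos, the main fit did not take the numbers as pairs. Also chosen after seeing the data, leaving out the 3 hemoglobin-rich libraries (over 1000 CPM) gave 1 for pre-HSC I against pro-HSC/HPC, with 1 pro-HSC/HPC library left, whose spread is assumed to be that of the other groups, and leaving out the 3 with over 50 CPM of Col1a1 gave 0 for EC of E10.5 against E9.5. Without the 3 libraries rich in Col1a1, 36 of the 49 calls in the comparisons that hold them were kept. Lost for EC of E9.5 against E8.5 were Col3a1, Lamc1, Nid1, Hspg2 and Agrn. Hapln1 and Eln were lost in HE against EC at E10.5, and Nid2 and Hspg2 in pre-HSC I against HE. So were Eln in EC and Fbln2 in HE of E10.5 against E9.5. The change of Col15a1 at E9.5 and that of Lama5 at E10.5, both against E8.5, were lost too. Genes near 3 counts per group are limited by depth.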

Other observations

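Between E8.5 and E9.5 matrix receptors and matrix proteases changed in EC as well. Of 31 receptors 10 were higher and 2 lower in E9.5 EC, where 10.1% of all genes were higher and 9.56% lower, among them the integrin chains Itga6 (3.73 on the log2 scale) and Itga9 (2.78) and the hyaluronan receptor Lyve1 (2.76), and in HE 6 were higher and 2 lower, where 2.97% and 3.58% of all genes were, with Itgav at 1.79, Itga6 at 1.41 and Cd44 at 1.29. Of 34 other proteases, inhibitors and sugar-modifying enzymes 10 were higher and 1, Ctsl (-1.20), was lower in E9.5 EC, with Plat at 3.32 and Adamts1 at 2.07. In HE 2 were higher, Timp2 (2.14) and Mmp16 (3.57). The difference between HE and EC changed between E8.5 and E10.5 for 3 receptors, 1 upward and 2 downward where 0.879% and 2.11% of all genes did, by 3.34 for Cd44, -2.66 for Itga6 and -3.81 for Lyve1.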
